A study of Coturnix japonica with 4 samples.

Results

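The agouti signal ASIP and the genes of the melanocortin axis were followed in embryonic skin of Japanese quail (Coturnix japonica). The set was chosen by gene name, with earlier results of these data known. Counts of calls in the set and in the gene lists below are therefore descriptive and do not test them against all genes. The set holds the ligands ASIP and POMC, the receptors MC1R and MC5R and the receptor accessory protein MRAP2. It also holds the agouti cofactors ATRN and MGRN1, the attractin-like paralog ATRNL1, the protease CORIN and the cystine transporter SLC7A11. Of these 10 genes, 9 were found under their symbols among the 12383 genes of the deposited table, and MC1R is not analysed here. Skin of untreated embryos was dissected at embryonic day 7 from stripes labelled black and from stripes labelled yellow. Each stripe colour had 2 RNA sequencing libraries, and each library pooled 4 embryos. The labels give no strain, sex or allele that sets the groups apart, and stripe colour is the contrast between them. Because embryos were pooled, variation between single embryos is not in the data.

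The deposited table gives 1 expression value per stripe in RPKM, read counts scaled to transcript length and to the mapped reads of a library, which allows levels of different genes to be compared per length. No value per library was used here, so no SD or n accompanies any level, and the depth behind the values is unknown. Differences are called from the q-value (false discovery rate) of the authors' deposited table, at q under 0.05. Of 13 listed pigment genes, 11 were higher in the value named for the yellow stripe, with 5 called. The other 2 were higher in the value named for the black stripe. The list is named for eumelanin, the black pigment, and read that way most of it ran against the stripe names. Its 5 called genes are also melanocyte lineage markers, so their direction does not separate eumelanin from pigment cell genes in general. TYR, the enzyme that starts melanin synthesis, had 4.68 RPKM in the value named for the black stripe and 57.3 RPKM in the one named for the yellow stripe. The values are therefore called by their codes in the table, E7B for the black label and E7Y for the yellow label, and every direction below follows these names. Whether the columns were exchanged in the table was not tested; if they were, E7B would be the yellow stripe and each direction below would refer to the other stripe. Skin was identifiable in both: the 9 dermal fibroblast markers summed to 2339 RPKM in E7B and 2255 RPKM in E7Y, with 0 of 9 called. The 6 keratinocyte markers in the table summed to 392.9 and 437.7 RPKM, with 0 of 6 called. Of the 10569 genes with a p below 1, 0.331% were called, so these counts of 0 say little. The keratinocyte markers KRT5, KRT14, KRT15 and CDH1 are not analysed here.

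In birds and mammals the melanocortin receptor of pigment cells sets the type of melanin. Melanocortin peptides cut from POMC activate it, raise cyclic AMP and favour black eumelanin, while ASIP, secreted by cells of the dermis, blocks the receptor and shifts pigment cells toward yellow or red pheomelanin. In mouse, attractin (ATRN) and mahogunin (MGRN1) are needed for the full effect of agouti, CORIN of the hair papilla limits it, and SLC7A11 imports the cystine from which pheomelanin is made.

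ASIP was the member that differed between the stripes. Its level was 29.4 RPKM in E7B and 10.4 RPKM in E7Y, so the value with the lower TYR level had the higher ASIP level. The ratio was 2.83-fold, a log2 ratio of E7B over E7Y of 1.503, with p = 0.00015 and q = 0.0438 in the authors' deposited table. Among the 10569 genes with a p below 1, taken here as tested, 0.331% passed q under 0.05, and 0.170% passed it with the higher level in E7B. Of the 6 members among those tested genes, 1 passed, ASIP. The single values do not show whether more ASIP-producing cells or more ASIP RNA per cell lay behind the level, since bulk tissue cannot tell them apart.

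**Figure D1:**
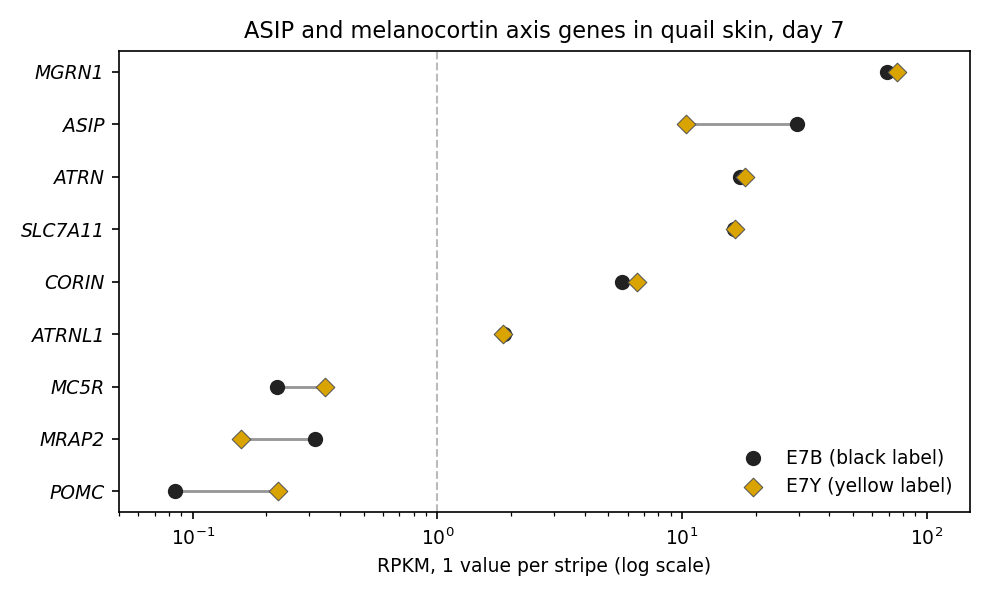
Levels of the 9 melanocortin axis genes in RPKM on a log axis, with a black circle for E7B and a yellow diamond for E7Y, 1 value per stripe and no error bars. The dashed line marks 1 RPKM; ASIP, at 29.4 against 10.4 RPKM, is the gene above that line whose symbols stand farthest apart.

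The order of levels, taken from the same ASIP values, restates this shift. In E7B ASIP ranked above 79.2% of all genes and was the second member after MGRN1. In E7Y it ranked above 49.9% and stood below MGRN1, ATRN and SLC7A11. ASIP had 1.70 times the level of ATRN in E7B and 0.575 times that level in E7Y, per length. Against CORIN these ratios of levels were 5.19 and 1.59. With 1 value per stripe, no spread is at hand to say which neighbours in this order differ.

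ASIP stood out from genes of its own abundance. Among the 500 genes nearest to it in mean level, between 18.6 and 21.3 RPKM, the log2 ratio had an SD of 0.15 across genes, and 0 of the 500 had a larger absolute log2 ratio. The call is nevertheless at the edge of the threshold. Of the 35 called genes 32 had a smaller q than ASIP, and 0 had a larger one. The next larger q in the table was 0.0537. By absolute log2 ratio ASIP ranked 17th among the 35, and 7th among the 18 that were higher in E7B.

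**Figure D2:**
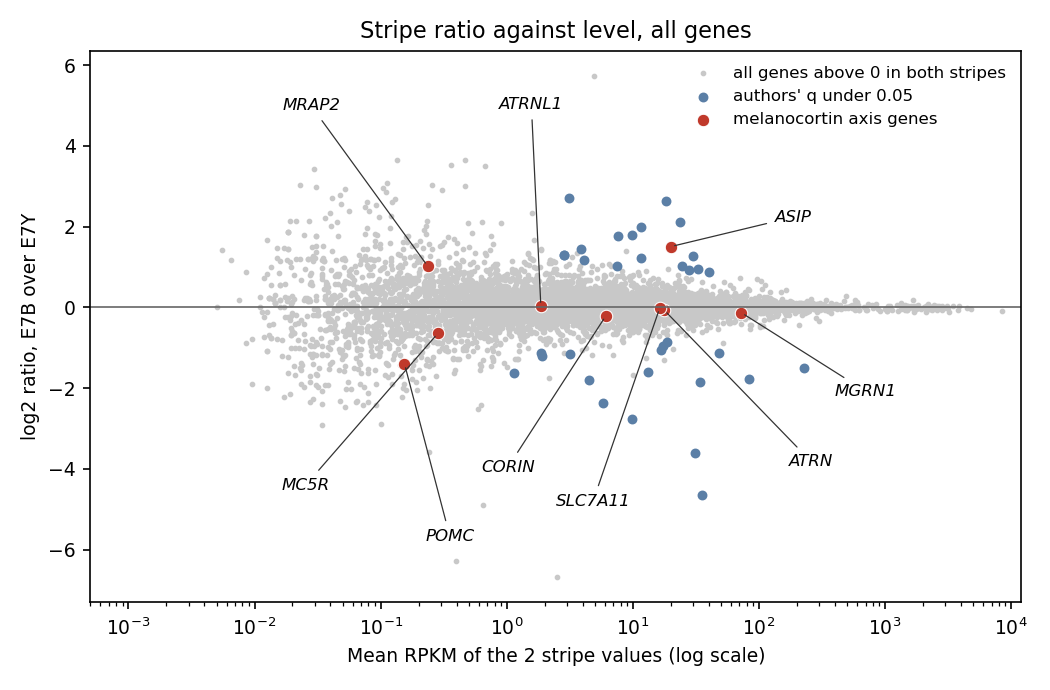
Log2 ratio of E7B over E7Y against the mean RPKM of both stripe values (log axis) for all genes above 0 in both stripes (grey), genes with the authors' q under 0.05 (blue) and the 9 melanocortin axis genes (red, named). ASIP lies above the grey band at a log2 ratio of 1.503, CORIN, ATRN, MGRN1, SLC7A11 and ATRNL1 lie near 0, and MRAP2, MC5R and POMC lie in the wide scatter below 1 RPKM.

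The measured genes that lie beside ASIP in the genome were close between the stripes. In the RefSeq annotation of Coturnix japonica 2.1, used for gene order, 4 of the 8 nearest annotated genes are in the table. AHCY, an enzyme of the methylation cycle next to ASIP on one side, had 234 RPKM in E7B and 229 RPKM in E7Y. ITCH, a ubiquitin ligase beyond it, had 12.4 and 12.5 RPKM. On the other side EIF2S2, a translation initiation subunit, had 187 and 172 RPKM, and the RNA-binding protein RALY 10.2 and 9.70 RPKM. None of these 4 was called, where 0.331% of all tested genes were, and their largest absolute log2 ratio was 0.12. Their annotated spans do not overlap that of ASIP. The sources do not name the build behind the deposited values.

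**Figure D3:**
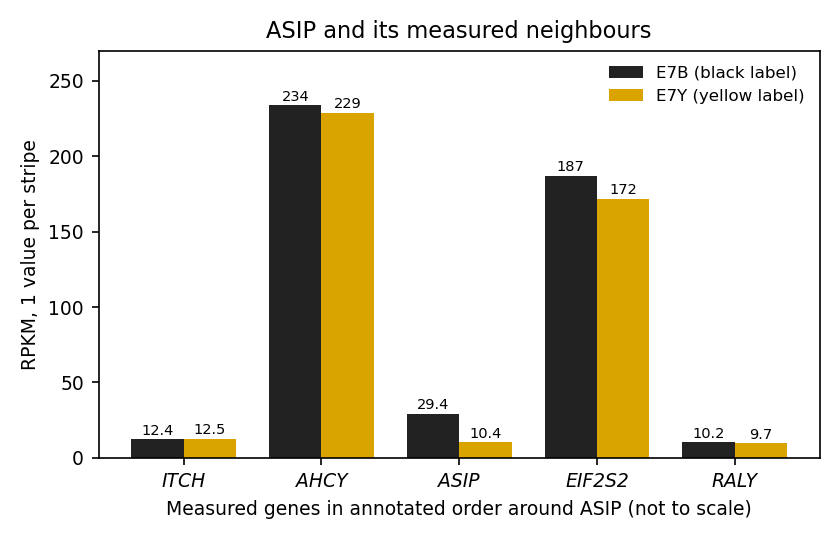
RPKM of ASIP and of the 4 measured genes among its nearest annotated neighbours, in annotated order and not to scale, as bars from 0 for E7B (black) and E7Y (yellow), 1 value each. The ASIP bars stand at 29.4 and 10.4 RPKM, while the bars of ITCH, AHCY, EIF2S2 and RALY are nearly level.

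A pair of values per gene gives little room for likeness of pattern, so likeness was measured as the absolute difference of log2 ratios. Among called genes, the 5 nearest to ASIP were CHRDL1, a secreted antagonist of bone morphogenetic proteins, the membrane protein SHISA6, the growth factor IGF1, the neuropeptide NPY and the transporter SLC4A11. Their log2 ratios lay within 0.05 (CHRDL1) to 0.26 (SLC4A11) of that of ASIP. NPY was the one of these 5 with a higher mean level than ASIP, at 42.5 RPKM in E7B and 17.6 RPKM in E7Y.

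The other ligands of the axis were at very low levels. POMC, the precursor of the melanocortin peptides, had 0.085 RPKM in E7B and 0.224 RPKM in E7Y, above the level of 6.50% and 10.4% of genes. AGRP, the agouti-related antagonist known from the brain, had 0.347 and 0.433 RPKM. ASIP was thus 84.8 times as abundant as AGRP in E7B and 24.0 times in E7Y, per length. Both POMC and AGRP had p = 1 in the authors' deposited table, as did 1759 of the 1779 genes under a mean of 0.5 RPKM, so these genes carry no usable test. Markers of pituitary corticotrophs, the main source of POMC in the adult, were also near 0, with 0.275 RPKM summed over 4 genes including POMC in E7B and 0.483 RPKM in E7Y.

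Among the enzymes that process prohormones, CPE differed in the same direction as ASIP. CPE, a carboxypeptidase that trims basic residues from peptide ends, had 36.6 RPKM in E7B and 19.3 RPKM in E7Y. The ratio was 1.89-fold, with p = 5e-05 and q = 0.0177 in the authors' deposited table, the smallest q it holds. Other called genes share that q, WIF1 and MFSD12 among them. PCSK2, a convertase that cuts POMC to alpha-MSH in mammals, had 3.43 and 5.66 RPKM, higher in E7Y, with an unadjusted p of 0.007 and q = 0.52, and was not called. The level of CPE was 10.7 times that of PCSK2 in E7B and 3.42 times in E7Y. PCSK1, the convertase that acts first on POMC, was at 0.145 and 0.178 RPKM.

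The remaining processing genes were close between the stripes. PAM, which amidates peptide ends, had 23.8 RPKM in E7B and 21.3 RPKM in E7Y. PRCP, a peptidase that inactivates alpha-MSH in mouse, had 21.2 and 20.2 RPKM, and the convertase FURIN 12.1 and 10.9 RPKM. SCG5, the chaperone of PCSK2, had 5.41 and 4.78 RPKM. Of the 8 tested genes of the ligand and processing list, 2 passed q under 0.05, ASIP and CPE, both higher in E7B, where 0.170% of all tested genes were, and 6 did not. The median log2 ratio of the 8 was 0.15, beside -0.00 over the 10061 genes that averaged 1 RPKM or more, called measured below.

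CORIN is a transmembrane serine protease. It had 5.67 RPKM in E7B and 6.55 RPKM in E7Y. The log2 ratio was -0.21, opposite in sign to that of ASIP, with p = 0.376 in the authors' deposited table, and it was not called. Of the 500 genes nearest to CORIN in level, 132 had a larger absolute log2 ratio.

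CORIN also stands in a list of 11 genes of the dermal condensate and papilla, of which 10 were tested. In that list WIF1, a secreted Wnt inhibitor, was the called gene, 1.94-fold higher in E7B with levels of 43.0 and 22.2 RPKM. The authors' deposited table gives q = 0.0177 for WIF1, and 0.170% of all tested genes were called with the higher level in E7B. RSPO2, an enhancer of Wnt signalling, had 6.88 and 3.58 RPKM, and FGF10, a growth factor of the dermis, 7.55 and 4.37 RPKM. Both had an unadjusted p under 0.05, with q = 0.0811 and q = 0.254. Such a p with the higher level in E7B was reached by 2.07% of all tested genes. The abundant members differed less: CRABP1 had 97.3 and 107 RPKM, NCAM1 83.4 and 83.7 RPKM, and VCAN 62.4 and 51.6 RPKM. The list median was 0.28, beside -0.00 over all measured genes, and 7 of the 10 measured genes were higher in E7B.

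Of the axis genes in the table, the receptors were among the scarcest. MC5R, a melanocortin receptor known from skin glands in mammals, had 0.222 RPKM in E7B and 0.347 RPKM in E7Y. MC4R, the receptor of appetite control, had 0.165 and 0.283 RPKM, and MC3R 0.031 and 0.007 RPKM. MC2R, the receptor of adrenocorticotropic hormone and the annotated neighbour of MC5R, is listed at 0 in both. All 4 had p = 1 in the authors' deposited table, so no difference between stripes could be called.

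Accessory proteins of the receptors were as low. MRAP2, which modulates melanocortin receptor signalling, had 0.317 RPKM in E7B and 0.157 RPKM in E7Y, and MRAP, which carries MC2R to the cell surface, 0.314 and 0.323 RPKM. In this range ratios scatter widely. Genes near MRAP2 in level had an SD of the log2 ratio of 0.76, and 67 of the 500 nearest had a larger absolute log2 ratio than its 1.01. For POMC the corresponding SD was 0.86, with 54 of 500 above its absolute ratio, and for MC5R 0.78, with 158 of 500. The annotated span of MRAP2 overlaps that of CEP162, a centrosome gene at 6.33 and 6.08 RPKM. Whether reads were assigned by strand is not stated, and the part of CEP162 reads in the MRAP2 value was not tested. The 6 receptor and accessory genes in the table together summed to 1.05 RPKM in E7B and 1.12 RPKM in E7Y.

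The agouti cofactors ATRN and MGRN1 were well expressed and nearly level between the stripes. ATRN, the attractin membrane protein, had 17.3 RPKM in E7B and 18.1 RPKM in E7Y, a log2 ratio of -0.07 with p = 0.759 in the authors' deposited table. The annotated span of ATRN overlaps that of LOC116653430, a gene without a value here. The part of LOC116653430 reads in the ATRN value was not tested. MGRN1, a ubiquitin ligase, was the most abundant member at 68.9 and 75.4 RPKM, with p = 0.513 in the authors' deposited table. For MGRN1, 83 of the 500 genes nearest in level had a larger absolute log2 ratio, and for ATRN 259 did. Neither was called.

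Their paralogs were scarcer in both stripes. ATRNL1, the attractin-like paralog, had 1.88 and 1.85 RPKM, so that ATRN stood at 9.19 times its level in E7B and 9.76 times in E7Y. RNF157, the paralog of MGRN1, had 2.37 and 2.09 RPKM, and MGRN1 stood at 29.1 and 36.1 times its level. TSG101, a sorting protein that MGRN1 ubiquitinates in mammalian cells, had 68.1 and 69.7 RPKM. Of the 5 tested genes of the attractin and mahogunin list, 0 passed q under 0.05 and 0 had an unadjusted p under 0.05. Over all tested genes these shares were 0.331% and 3.46%, so 0 of 5 says little. The list median was -0.03.

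SLC7A11 exchanges glutamate for cystine at the cell surface. It had 16.3 RPKM in E7B and 16.4 RPKM in E7Y, a log2 ratio of -0.01 with p = 0.952 in the authors' deposited table. Of the 500 genes nearest in level, 436 had a larger absolute log2 ratio. SLC7A11 thus stood at 0.553 times the level of ASIP in E7B and 1.58 times in E7Y.

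Among 10 tested genes of cystine and glutathione handling, MFSD12 was the one called, where 0.331% of all tested genes were. MFSD12 imports cysteine into lysosomes and melanosomes, and it had 18.4 RPKM in E7B and 4.64 RPKM in E7Y. The ratio was 3.97-fold in the direction of ASIP, with q = 0.0177 in the authors' deposited table. CTNS, which exports cystine from lysosomes, had 13.6 and 13.3 RPKM. CTH, which makes cysteine from cystathionine, had 130.5 and 130.4 RPKM, GCLM, a subunit of the first glutathione enzyme, 24.0 and 27.9 RPKM, and the glutathione-degrading CHAC1 25.3 and 26.0 RPKM. The list median was 0.00, and the 9 other tested genes were not called.

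Taking the members by size of difference, ASIP was the 1 of 6 measured members at least 1.5-fold apart, where 2.86% of all measured genes were. The 5 others had log2 ratios between -0.21 and 0.02, the largest of them a 1.16-fold difference, and the smallest p among them was 0.376. The smallest ratio that was called anywhere in the table was 1.82-fold, for EML1, so a missed call does not show that these 5 genes were equal in both stripes.

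Genes of the cyclic AMP relay downstream of the receptor were followed through 27 tested genes in whole skin. Their RNA levels are not specific to pigment cells and do not measure signalling. RAPGEF4, a guanine nucleotide exchange factor switched on by cyclic AMP, was the 1 called, at 0.564 RPKM in E7B and 1.73 RPKM in E7Y, with q = 0.0177 in the authors' deposited table. Its mean of 1.15 RPKM was just above the 1 RPKM from which genes count as measured, and its E7B value was below it. Over all tested genes 0.331% were called, 0.161% with the higher level in E7Y. ADCY5, an adenylyl cyclase, had 17.7 and 12.8 RPKM with an unadjusted p of 0.0231 and q = 0.985, where 3.46% of all tested genes had an unadjusted p under 0.05. GNAS, the stimulatory G protein subunit that couples melanocortin receptors to the cyclases, had 24.95 and 27.07 RPKM. The most abundant genes were level, with PRKAR1A, a regulatory subunit of protein kinase A, at 111.3 and 111.7 RPKM, GNAI3 at 107 and 110.5 RPKM and GNAI2 at 82.4 and 80.7 RPKM. MITF, the melanocyte regulator at the end of the relay, had 21.9 and 26.0 RPKM, with p = 0.221 in the authors' deposited table. The median over the list was 0.03, with 15 measured genes higher in E7B and 12 in E7Y.

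Melanocortin signalling raises the expression of eumelanin genes in melanocytes. The genes listed for this are not particular to eumelanin, and the 5 called ones are also melanocyte lineage markers. Of 13 tested genes, 5 were called, all higher in E7Y, where 0.161% of all tested genes were: TYRP1, TYR, DCT, MLANA and PMEL, with log2 ratios from -4.65 (TYRP1) to -1.51 (PMEL). A further 3, OCA2, SLC24A5 and SLC24A4, had an unadjusted p under 0.05 in the same direction and were not called. With the called genes, 8 of the 13 had such a p with the higher level in E7Y, beside 1.39% of all tested genes. The list was chosen with earlier results of these data known, so these shares do not test it. MLPH, GPR143, TRPM1, RAB27A and SLC45A2 were not called either. Of these, SLC45A2, with 9.15 RPKM in E7B and 7.31 RPKM in E7Y, and RAB27A, with 19.1 and 18.6 RPKM, were on the side of ASIP. The list summed to 216.5 RPKM in E7B and 637.1 RPKM in E7Y, and its median log2 ratio was -1.29. In the same libraries the lineage regulators SOX10, at 22.4 and 25.2 RPKM, and PAX3, at 6.89 and 5.75 RPKM, were not called. Nor were the receptors KIT, at 30.8 and 23.6 RPKM, and EDNRB, at 2.14 and 1.96 RPKM. SOX10 was higher in E7Y, while PAX3, KIT and EDNRB were higher in E7B. The lineage marker EDNRB2 is not analysed here. The part of pigment cell number in the ratios of the pigment genes was not tested.

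**Figure D4:**
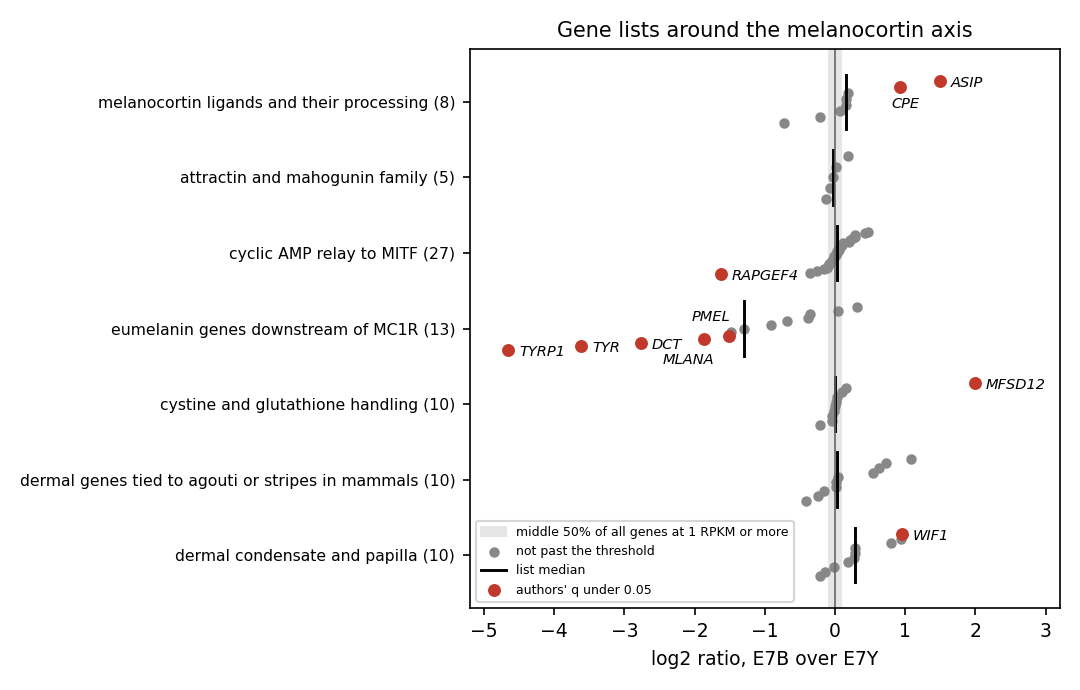
Log2 ratio of E7B over E7Y for every gene with a mean of at least 1 RPKM in 7 gene lists around the melanocortin axis (number of genes in brackets), red where the authors' q was under 0.05, with the list median as a black line and the range between the quartiles of all such genes (-0.08 to 0.08) shaded. ASIP, CPE, MFSD12 and WIF1 lie to the right, and RAPGEF4 and the 5 named pigment genes to the left.

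Position genes of the dermis that are tied to agouti or to coat stripes in mammals gave 0 calls among 10 tested genes. Over all tested genes 0.331% were called, so a count of 0 says little about these 10. At an unadjusted p under 0.05, 4 were higher in E7B and 1 in E7Y, where 2.07% and 1.39% of all tested genes were. EN1, a homeobox regulator, had 8.82 RPKM in E7B and 4.18 RPKM in E7Y with q = 0.148. TBX18, a T-box factor, had 10.6 and 6.45 RPKM, ALX4 7.83 and 5.05 RPKM, and the signal BMP2 9.28 and 6.38 RPKM. LMX1B, a regulator of dorsal limb identity, had 29.0 and 38.8 RPKM. TBX15, which sets the lower border of dorsal coat colour in mouse, had 76.1 and 73.8 RPKM, BMP4 44.1 and 43.9 RPKM, and EDN3, a ligand for pigment cell precursors, 28.1 and 31.4 RPKM. The list median was 0.03.

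Markers of other tissue in the dissected skin were summed in each stripe. Skeletal muscle markers summed to 34.2 RPKM in E7B and 18.1 RPKM in E7Y over 7 genes, of which 4 were tested. Of these 4, 0 were called and 3 were higher in E7B at an unadjusted p under 0.05, where 2.07% of all tested genes were. TNNC1, at 25.1 and 13.0 RPKM, made up most of that sum. The others of these 3 were PAX7, at 4.25 and 2.01 RPKM, and DES, at 2.94 and 1.36 RPKM. All 4 measured muscle markers were higher in E7B, with a median log2 ratio of 1.02. MYOD1, MYOG and MYF5 were each below 0.2 RPKM in both. Smooth muscle markers summed to 33.55 and 48.35 RPKM over 5 genes, of which 4 were tested. MYH11 was called, higher in E7Y, where 0.161% of all tested genes were. ACTA2, at 19.1 and 28.6 RPKM, was not called but had an unadjusted p under 0.05 in that direction, as 1.39% of all tested genes did. The other smooth muscle markers were nearly level: RGS5 had 9.45 and 9.77 RPKM, TAGLN 2.53 and 2.58 RPKM, and CNN1 0.44 and 0.402 RPKM. Neuron markers summed to 22.2 and 20.9 RPKM over 6 genes, but 3 of them had an unadjusted p under 0.05, where 3.46% of all tested genes did. They went in both directions: TUBB3 had 10.4 and 5.99 RPKM, ELAVL4 4.07 and 6.41 RPKM, and GAP43 2.79 and 4.99 RPKM. None of these 6 was called. Schwann cell markers summed to 17.95 and 22.07 RPKM over 6 genes, of which 3 were tested. Endothelial markers summed to 75.1 and 76.0 RPKM over 4 and immune markers to 16.99 and 15.94 RPKM over 4. In each of these lists 0 were called. Since 0.331% of all tested genes were called, the counts of 0 in these marker lists say little. The part of these tissues in the ASIP and CPE differences was not tested. The erythroid markers are not analysed here.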

How the data were processed

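Libraries were made with an Illumina TruSeq RNA kit from Trizol-extracted skin, per the labels' protocols. TopHat2 2.1.1 and Cufflinks 2.2 are named in the submitters' processing notes. The RPKM values were computed by the authors and deposited as 1 value per stripe in the columns used here. The p-values, q-values and log2 ratios of the authors were deposited in a second sheet that carries the mark of QIAGEN software, per the file headers. Other marks in the deposited table repeat p under 0.05. A pair of value columns without a stripe name in that sheet was not used. How the libraries of a stripe were combined is not given in the sources, nor are the genome build and the strand setting.

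Of 12419 rows, 11 whose ID had become a date number and 25 with repeated transfer RNA IDs were left out. The 12383 remaining genes were used with Python 3.11.15 and pandas 2.3.3; 11844 have a RefSeq symbol of Coturnix japonica 2.1, which served for gene order only. Log2 ratios of E7B (black label) over E7Y (yellow label) carry no pseudocount. With 1 value per stripe no test was run on the values, and calls use the authors' q under 0.05. Genes at a mean of at least 1 RPKM count as measured. The adjustment step was tested on simulated data. Besides all members, genes are named where they passed q or unadjusted p under 0.05 in a list, are among the 3 most abundant others of a list, neighbour ASIP or resemble it in ratio. Paralogs, genes below 1 RPKM, TYR and further markers are also named. The members and lists were chosen with earlier results of these data known. Protein comparisons were planned but are not reported here.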

Additional observations from a re-analysis of the deposited data

How the results depend on the processing

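No paired analysis was possible because the table has 1 value per stripe, and for the same reason leaving out single libraries was not run. The log2 ratio of ASIP, 1.503 as deposited, was 1.49 with a pseudocount of 0.1 RPKM and 1.42 with one of 1 RPKM. Scaling to the median, the upper quartile or the sum shifted all ratios by -0.0005, 0.0007 and -0.0022 on the log2 scale. A pseudocount cannot turn a ratio, these shifts are smaller than every member's ratio, and none of them enters the authors' q, so they say nothing about stability. The number of called members was 1 at q under 0.05, 1 at q under 0.1, 1 at unadjusted p under 0.05, and 1 (ASIP, q = 0.0431) with p-values adjusted over genes of at least 1 RPKM. It was 0 at q under 0.01, where 0 of all genes passed because the lowest q is 0.0177. Over all genes 35 became 57 at q under 0.1 and 366 at unadjusted p under 0.05. The log2 ratios of the 3 members below 1 RPKM shrank with a pseudocount of 1 RPKM, to -0.17 for POMC, -0.14 for MC5R and 0.19 for MRAP2. The eumelanin list median became -0.70 with that pseudocount, which understates the change of low genes. Other list medians moved by under 0.1 at floors of 0.1 and 5 RPKM. The spread of log2 ratios across genes of like level had an SD of 0.15 near ASIP and 0.86 near POMC. It is taken across genes with 1 value per stripe, so it does not measure the precision of a single gene's ratio. With the depth unknown and no value per library, that precision is not known.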

Other observations

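Some called genes with smaller ratios and lower levels had a smaller p-value than ASIP. In the authors' deposited table, there were 12 called genes that had both a smaller absolute log2 ratio and a lower mean level than ASIP, and 10 of them had a smaller p, with 9 at the lowest p of the table, 5e-05. CHRDL1, for example, had 5.64 against 2.07 RPKM and p = 5e-05 in the authors' deposited table, where ASIP had p = 0.00015. The cause was not tested.

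Around all 9 members, 40 of the 72 nearest annotated genes are in the table, 31 of them at a mean of at least 1 RPKM. By the authors' q under 0.05, 0 of the 40 were called, where 0.331% of all tested genes were. An unadjusted p under 0.05 was reached by 2 of them, beside 3.46% of all tested genes. Some of the 40 do not count as tested, so these counts and shares are not over like sets. GFRA4, a receptor of the GDNF family near ATRN, had 3.79 RPKM in E7B and 2.56 RPKM in E7Y. TBX18 lies near MRAP2 and had 10.6 and 6.45 RPKM.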
